A study of Rattus norvegicus with 2 samples.

Results

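Genes of glycolysis, glycogen turnover and glucose or lactate transport were followed after fine needle stimulation of the adductor of the rat thigh. A list of 42 genes was matched by symbol to the annotation of the array. Of these, 39 had at least 1 probe set of their own, with 58 probe sets in all, out of 14217 genes named on the array, and 37 were measured, meaning that a probe set reached a signal floor of 19.8 on at least 1 array. All 37 reached it on both arrays. Aldoc and Pfkfb2 lay below the floor on both arrays, and Pkm, Gapdh and Ppp1r3c had no probe set assigned to them alone.

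The stimulated sample was left hindlimb muscle of the male Lewis rat, an inbred strain, taken 24 hours after 100 pricks with a 0.14 mm steel needle in a square of 10 mm by 10 mm. The control sample was muscle of the right hindlimb, which was left intact. Each limb was represented by 1 array of total RNA, the number of rats behind each sample is not stated, and so every difference below is without a replicate check and no test was made. "Higher" and "lower" describe these 2 arrays only. The error at hand comes from genes that several probe sets measured. Over 2174 such genes, the log2 ratios of stimulated over control of the 2 brightest probe sets differed with an SD of 0.44. Divided by the square root of 2, this gives 0.31, used below as the single probe set SD at every signal level. This spread leaves out variation between limbs and between animals. All 11 fast-fibre markers with a probe set reached the floor on both arrays.

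Glycolysis splits glucose into pyruvate and yields ATP without oxygen. Skeletal muscle stores glucose as glycogen, and fast-twitch fibres in particular draw on it during short, intense work, releasing lactate. Many steps are carried out by isoenzymes, encoded by separate genes, of which one is the main form in muscle fibres (for example Pygm, Pgam2 or Eno3) and another is more abundant in other cells (Pygb, Pgam1 or Eno1). Lactate dehydrogenase is made of subunits from Ldha, the muscle form, and Ldhb, the form typical of heart and oxidative fibres.

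The main pattern was a split along these isoforms, in pairs chosen with earlier results of these data known. It largely coincided with a difference in signal level, described below. Forms typical of skeletal muscle fibres had log2 ratios of stimulated over control below 0, 6 of 9 by more than the single probe set SD. Of their 10 partner isoforms, 9 had ratios above 0, but only 4 by more than that SD (Pfkp, Pgam1, Ldhb and Phkg2). Over all genes, 18% were lower and 19.5% higher by more than that SD. The sequence before the start differs within some pairs. The 250 bases before the annotated start, from RefSeq (build GRCr8), are shown for the muscle and partner genes of 2 enzymes, phosphoglycerate mutase and glycogen phosphorylase, which were chosen after the motifs had been counted because their muscle genes hold the E-box. They lie at chr14:84897875-84898124, minus strand (Pgam2), chr1:250672902-250673151, plus strand (Pgam1), chr1:213119555-213119804, plus strand (Pygm) and chr3:160071891-160072140, plus strand (Pygb). Capitals mark the E-box CAGCTG, a sequence that myogenic factors such as MyoD can bind, and the GC box GGGCGG on either strand, a sequence of Sp1-type factors that is common in promoters of widely expressed genes.
Pgam2: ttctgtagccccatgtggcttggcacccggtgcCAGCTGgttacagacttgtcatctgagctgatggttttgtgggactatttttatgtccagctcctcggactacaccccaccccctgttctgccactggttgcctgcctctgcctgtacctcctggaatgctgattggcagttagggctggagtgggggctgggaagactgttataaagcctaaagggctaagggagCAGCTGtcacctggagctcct
Pgam1: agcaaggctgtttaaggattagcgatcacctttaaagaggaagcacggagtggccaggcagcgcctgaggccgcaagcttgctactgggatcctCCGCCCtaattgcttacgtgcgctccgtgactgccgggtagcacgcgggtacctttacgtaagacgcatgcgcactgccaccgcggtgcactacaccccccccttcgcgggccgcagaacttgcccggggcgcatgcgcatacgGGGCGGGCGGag
Pygm: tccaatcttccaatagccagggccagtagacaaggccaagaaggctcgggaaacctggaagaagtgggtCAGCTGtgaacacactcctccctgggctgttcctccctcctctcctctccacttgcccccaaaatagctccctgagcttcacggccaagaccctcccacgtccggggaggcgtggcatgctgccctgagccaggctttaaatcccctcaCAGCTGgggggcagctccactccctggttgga
Pygb: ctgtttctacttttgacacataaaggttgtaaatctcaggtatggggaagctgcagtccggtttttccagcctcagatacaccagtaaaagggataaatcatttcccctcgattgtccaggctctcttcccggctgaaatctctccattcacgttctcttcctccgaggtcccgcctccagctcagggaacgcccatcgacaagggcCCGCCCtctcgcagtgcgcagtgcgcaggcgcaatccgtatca

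Both muscle genes held 2 E-boxes of the sequence CAGCTG, the only form counted here and below, and 0 GC boxes in this window. In Pgam1 there were 0 E-boxes and 3 GC boxes, of which the last 2 overlap, and in Pygb 0 E-boxes and 1 GC box. Across the isoform pairs described below, a promoter was listed for 8 of 9 muscle isoforms and for all 10 partners, taking the first start where a gene had several. A GC box was found in 1 of the 8 muscle promoters (Ldha, with 3) and in 6 of the 10 partner promoters. This compares with 32.4% of 27457 gene promoters of the same length and 52.6% of the 38 promoters of all members. Eno1 and Hk1 each had a further start, not counted here, whose window held 2 GC boxes. An E-box was found in 2 of the 8, the pair of muscle genes shown, and in 0 of the 10. The shares were 11.9% for all genes and 13.2% for all members. The dinucleotide CG occurred a median of 4.5 times in the muscle promoters and 15.5 times in the partner promoters. Its median was 6 in all genes and 13.5 in all members. ACGTG or GCGTG on either strand, the core of the hypoxia response element, was found in 4 of the 8 and in 9 of the 10. It was found in 37.9% of all genes and 63.2% of all members. The pairs with the largest differences in expression did not follow this pattern. The Ldha window held 22 CG dinucleotides and the Ldhb window 10 CG and 0 GC boxes, and neither Phkg1 nor Phkg2 held an E-box or a GC box. These matches describe letters in a window and were not tied to binding.

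Among the 37 measured members, 26 had a log2 ratio below 0 and 11 above it. Below 0 lay 70.3% of the members, against 47.7% of 9956 measured genes, and above 0 lay 29.7%, against 52.3%. The median log2 ratio was -0.31 for the members and 0.019 for all measured genes. The differences were small. A difference of 2-fold or more was found in 1 member, Ldhb, which was higher, and in 0 members in the lower direction, against 1.43% of all genes in each direction. At least 1.5-fold higher were 2 members, against 6.59% of all genes, and at least 1.5-fold lower were 4, against 6.94%. As shares of the members these were 2.7%, 5.41% and 10.8%, near those of all genes. More than the single probe set SD of 0.31 below 0 were 16 members, which is 43.2%, against 18% of all genes. More than that SD above 0 were 5 members, which is 13.5%, against 19.5%. The shift thus lay in many modest differences in the same direction and not in a few large ones.

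**Figure D1:**
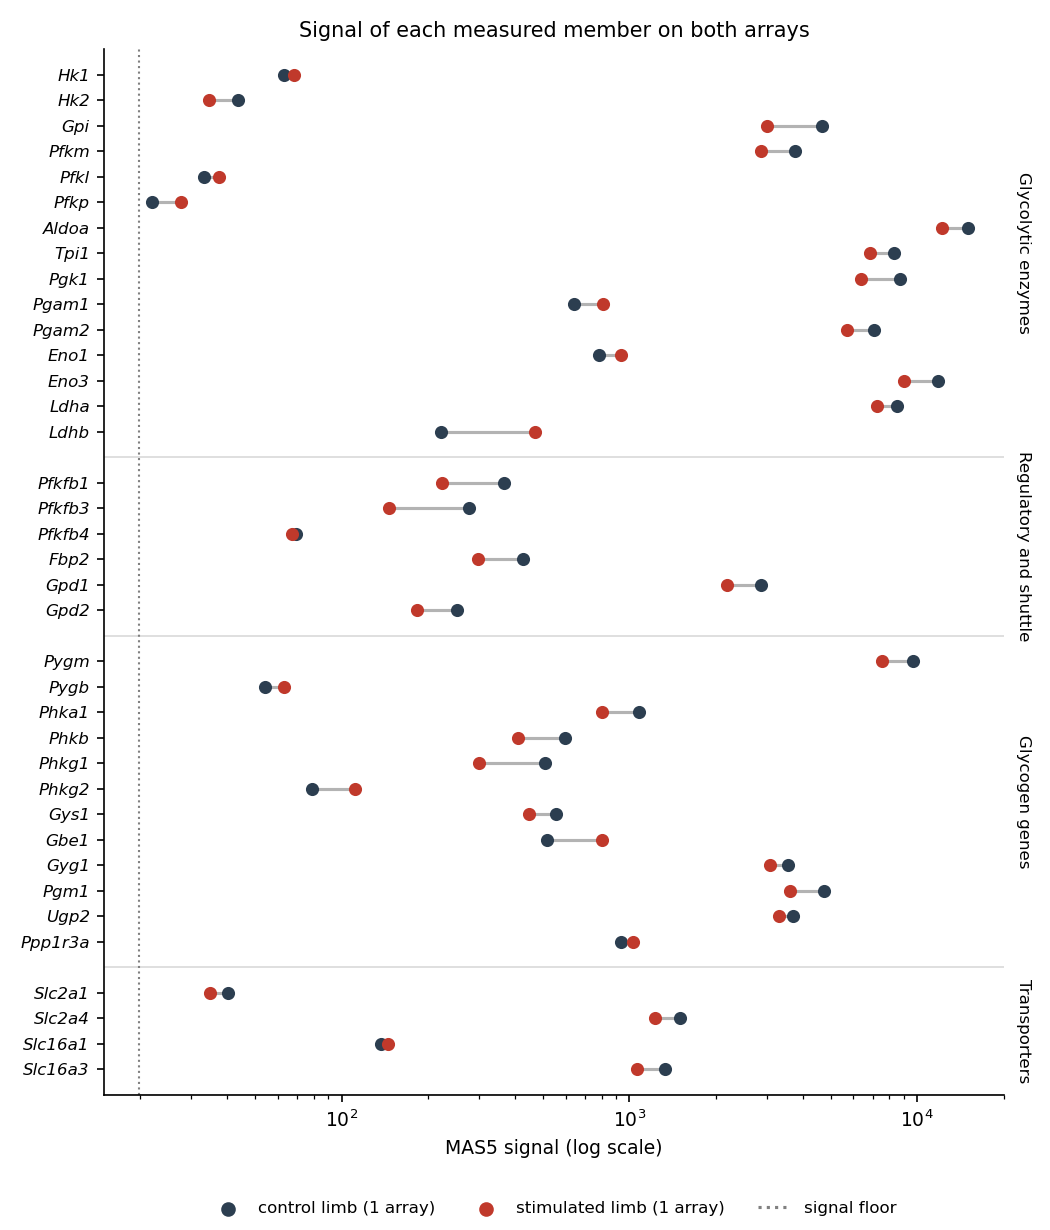
MAS5 signal (log scale) of the 37 measured members in the control limb (dark) and the stimulated limb (red), 1 array each, by group. The dotted line is the signal floor of 19.8, and the red point lies left of the dark one for 26 of the 37 genes.

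The first enzyme of the pathway, hexokinase, traps glucose in the cell. Hk2, its insulin-responsive muscle form, had signals of 34.6 (stimulated) and 43.5 (control), 1.26-fold lower. These signals were low, and the log2 ratio of -0.33 only just exceeded the probe set SD. Hk1, the form of most other tissues, had signals of 68.2 and 63.2, a difference within the probe set SD. The manufacturer's control probe sets for hexokinase were near or under the floor and went both ways, with log2 ratios of 0.13 and -0.27 for the 3' and middle regions. Gpi, glucose phosphate isomerase, had signals of 3011 and 4653 and was 1.55-fold lower, the largest reduction among the glycolytic enzymes.

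Phosphofructokinase catalyses the committed step. The muscle subunit gene Pfkm had a signal of 2873 in the stimulated and 3765 in the control limb, a log2 ratio of -0.39, and its second probe set above the floor had signals of 1673 and 2547, a log2 ratio of -0.61. The liver-type subunit Pfkl had signals of 37.6 and 33.2 and the platelet-type subunit Pfkp of 27.6 and 22.0. Both partners were thus slightly higher, by log2 ratios of 0.18 and 0.33, at signals close to the floor where relative noise is largest.

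The enzymes of the middle of the pathway were all modestly lower. Aldoa, muscle aldolase, had signals of 12148 in the stimulated and 15043 in the control limb, 1.24-fold lower. Tpi1, triose phosphate isomerase, had signals of 6873 and 8320, 1.21-fold lower. Pgk1, phosphoglycerate kinase, had signals of 6389 and 8699, 1.36-fold lower, while its second probe set, which carries the suffix of shared sequence, differed by a log2 ratio of only -0.079. The ratios of Aldoa and Tpi1 stayed within the probe set SD and that of Pgk1 exceeded it. Gapdh, often used as a reference gene, is covered by the manufacturer's control probe sets. These were lower in all 3 regions of the transcript, by 1.29-fold at the 3' end (11036 against 14256), 1.31-fold in the middle and 1.34-fold at the 5' end.

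In the last steps the paired isoforms had log2 ratios of opposite sign. Pgam2, muscle phosphoglycerate mutase, had signals of 5706 in the stimulated and 7066 in the control limb, whereas Pgam1 had 812 and 640. Eno3, muscle enolase, had signals of 8972 and 11794, whereas Eno1, the widely expressed enolase, had 933 and 785. The muscle gene was lower and its partner higher in both pairs, although Pgam2 and Eno1 each stayed within the probe set SD. Ldha had signals of 7215 and 8533, 1.18-fold lower. Ldhb had 469 in the stimulated and 221 in the control limb, 2.12-fold higher, and was the member with the largest difference in either direction, seen on its 1 probe set.

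**Figure D2:**
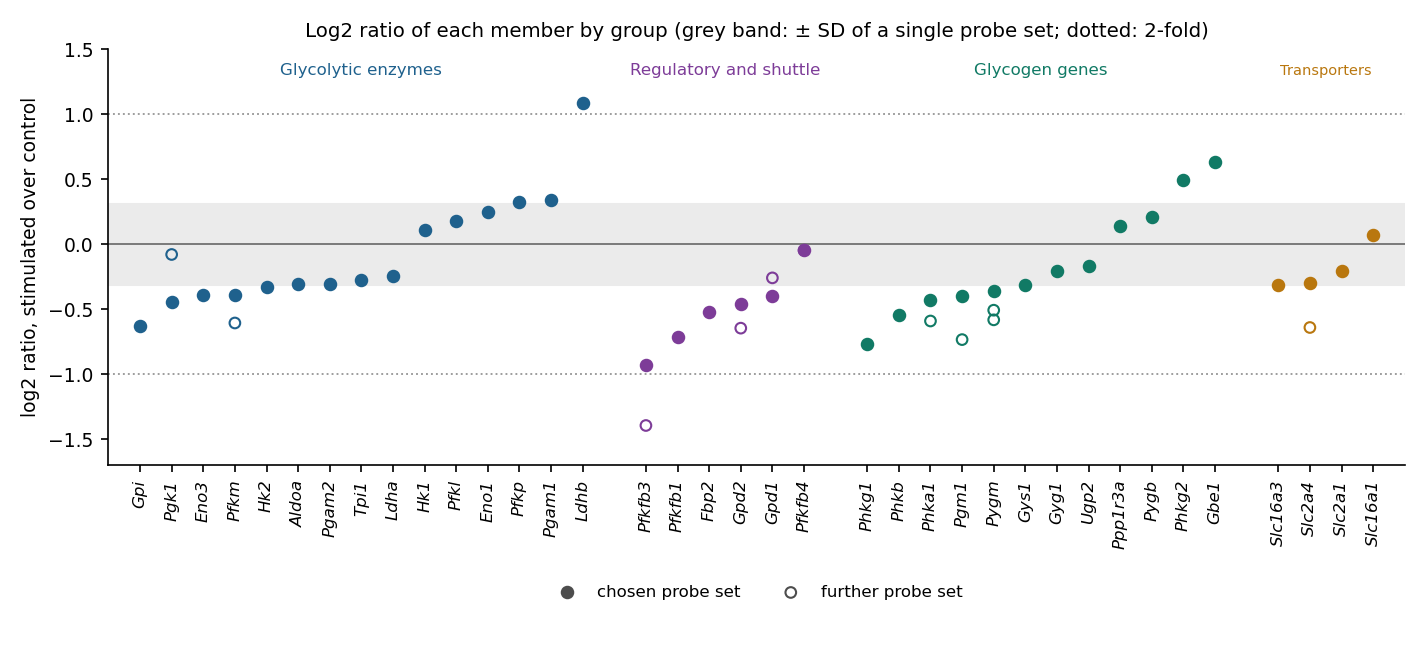
Log2 ratio of stimulated over control for each measured member, by group and sorted within it. Filled points are the chosen probe set and open points further probe sets that reached the floor in both limbs. The grey band is the single probe set SD of 0.31 to either side of 0 and the dotted lines mark 2-fold. All 11 open points lie on the same side of 0 as the filled point of their gene.

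The Pfkfb genes, of which 3 were measured, encode bifunctional enzymes that make and remove the sugar bisphosphate activating phosphofructokinase. Pfkfb3, the inducible form, had signals of 146 in the stimulated and 278 in the control limb, 1.90-fold lower. Its second probe set above the floor had signals of 46.8 and 123, 2.63-fold lower. Pfkfb1, the form of liver and muscle, had signals of 224 and 367, 1.64-fold lower. Pfkfb4 had 67.5 and 69.7, and its second probe set had 53.1 and 54.9, so that neither differed by more than the probe set SD. The Pfkfb2 probe sets stayed between 2.44 and 17.7 on both arrays, under the floor.

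Fbp2, the muscle fructose bisphosphatase, which works against phosphofructokinase, had signals of 298 in the stimulated and 428 in the control limb, 1.44-fold lower. The glycerol phosphate shuttle carries electrons from cytosolic NADH into mitochondria. Its cytosolic enzyme Gpd1 had signals of 2177 and 2871, 1.32-fold lower, with a log2 ratio of -0.26 on a second probe set. Its mitochondrial enzyme Gpd2 had 183 and 252, 1.38-fold lower, with a second probe set at -0.65. All 6 measured genes of this regulatory and shuttle group lay below 0, with a median log2 ratio of -0.49, and 5 of them by more than the probe set SD, against 47.7% and 18% of all genes.

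Glycogen genes had log2 ratios on both sides of 0. Glycogen phosphorylase releases glucose units, and phosphorylase kinase switches it on in response to calcium and adrenaline. Pygm, the muscle phosphorylase, had signals of 7533 in the stimulated and 9650 in the control limb, a log2 ratio of -0.36, and its 2 other probe sets gave -0.51 and -0.58. Pygb, the brain-type enzyme, had 62.9 and 54.4, a log2 ratio of 0.21.

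Of the phosphorylase kinase subunits, the regulatory genes Phka1 and Phkb were 1.35-fold lower (800 against 1077) and 1.46-fold lower (410 against 599), and the second Phka1 probe set was 1.51-fold lower. The catalytic subunit of muscle, Phkg1, had signals of 299 in the stimulated and 511 in the control limb, 1.71-fold lower. The catalytic subunit of liver and testis, Phkg2, had signals of 112 and 79.2, 1.41-fold higher. Within the same enzyme, the catalytic isoforms therefore went opposite ways.

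Genes of glycogen synthesis did not move together. Gbe1, the branching enzyme, had signals of 801 in the stimulated and 516 in the control limb, 1.55-fold higher, and was after Ldhb the member with the second largest increase. Gys1, muscle glycogen synthase, had 449 and 557, 1.24-fold lower. Gyg1, glycogenin, the primer of the chain, had 3085 and 3556, and Ugp2, which makes the activated glucose for synthesis, had 3298 and 3704, both within the probe set SD. Pgm1, which interconverts the glucose phosphates on the way in and out of glycogen, had 3602 and 4742, 1.32-fold lower, and its second probe set was 1.66-fold lower. Ppp1r3a, which tethers protein phosphatase to glycogen in muscle, had 1027 and 932, within the probe set SD. Of the 12 measured glycogen genes, 8 lay below 0 and 4 above, with a median log2 ratio of -0.26. Below 0 lay 66.7% of them, against 47.7% of all genes.

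Transporters differed little. Slc2a4 (GLUT4), the insulin-responsive glucose transporter of muscle and fat, had signals of 1224 in the stimulated and 1502 in the control limb, 1.23-fold lower, and 504 and 785 on its second probe set, 1.56-fold lower. Slc2a1 (GLUT1), the basal glucose transporter, had 34.9 and 40.2. Slc16a3 (MCT4), the lactate exporter of glycolytic fibres, had 1066 and 1324, 1.24-fold lower. Slc16a1 (MCT1), the monocarboxylate transporter associated with lactate uptake in oxidative fibres, had 145 and 137. Of the 4 transporters, 1 was outside the probe set SD, Slc16a3 at -0.31, which lay at its edge. This is 25%, against 18% of all genes lower by more than that SD.

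Isoforms that share a reaction were set side by side in 11 pairs, of which 10 were measured, the pair of Aldoa and Aldoc being without a signal for Aldoc. The log2 ratio was lower for the muscle isoform in all 10 pairs. Because the pairs were chosen with earlier results of these data known, this count is a description and not an independent check. The median difference, muscle isoform minus partner, was -0.61, and 7 of the 10 differences exceeded 0.44, the SD between 2 probe sets of the same gene. How often 2 other genes differ by more than this SD was not counted. The largest were those of Ldha and Ldhb at -1.33 and of Phkg1 and Phkg2 at -1.27. The smallest was that of Slc2a4 and Slc2a1 at -0.091. The pairs of Hk2 with Hk1 (-0.44) and of Slc16a3 with Slc16a1 (-0.39) also stayed within that SD. Of the 9 muscle isoforms, all 9 lay below 0, with a median of -0.33, and of the 10 partners 9 lay above 0, with a median of 0.23. Over all genes, 47.7% lay below 0 and 52.3% above. Pfkm enters 2 pairs, so the 10 differences are not independent.

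**Figure D3:**
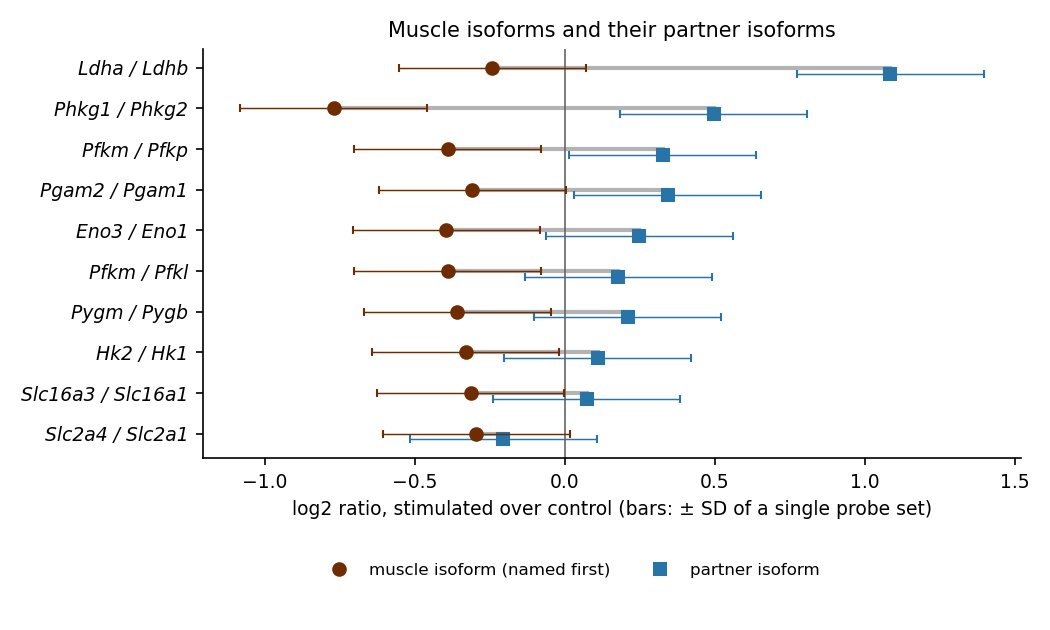
Log2 ratio of stimulated over control of the muscle isoform (circles, named first) and its partner isoform (squares) in the 10 measured pairs, sorted by their difference. Bars are the single probe set SD of 0.31 and not a replicate error. The circle lies left of the square in every pair.

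Some members were measured by several probe sets, which share the same arrays and scaling. A further probe set above the floor on both arrays existed for 10 members, 11 probe sets in all, and each of the 11 had the same sign as the chosen one. The difference from the chosen probe set was between 0.0013 and 0.47, and was under 0.44 for 10 of the 11. The exception was Pfkfb3, whose further probe set showed the larger reduction. All 10 of these members lay below 0, so that none of the higher members, Ldhb, Gbe1 and Phkg2 included, had a second measured probe set on the same footing.

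All directions depend on the scaling between the arrays. The 18 hybridisation spike-ins, added in fixed amounts, had log2 ratios between -0.70 and -0.20, with a median of -0.38, and so were lower on the stimulated array without exception. With the arrays scaled to them, the median was 0.39 over all genes and 0.072 over the members, with 13 members below 0 in place of 26. Relative to the median gene, the members' median was then -0.32. With quantile normalization, the median of the glycolytic enzymes was 0, or -0.042 relative to the median gene, in place of -0.28, and 24 members lay below 0. Differences between isoforms are ratios within the arrays. Scaling to the spike-ins could change them only through the floor, and the median difference was then also -0.61.

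Brightness moved with the direction as well. Of the 15 members with a mean signal of at least 1000, all 15 lay below 0, with a median log2 ratio of -0.31, whereas 538 other genes that bright had a median of 0.045 and 43.5% below 0. At a mean signal of at least 2000, the medians were -0.36 for 13 members and 0.010 for 255 other genes. At least 5000 was reached by 7 members, with a median of -0.31, and by 53 other genes, with a median of -0.21. The brightest members thus differed less from genes of like signal, but these other genes included fast-fibre markers such as Ckm and Atp2a1. Of the 22 members under 1000, 11 lay below 0, with a median of 0.014. All muscle isoforms of the measured pairs except Hk2 and Phkg1 had a mean signal of at least 1000, whereas every partner lay under 1000. The isoform split and the difference by signal therefore overlapped in these genes. After a loess correction for signal, the median difference of the isoform pairs was -0.51 and the muscle isoform remained the lower one in 10 of 10.

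**Figure D4:**
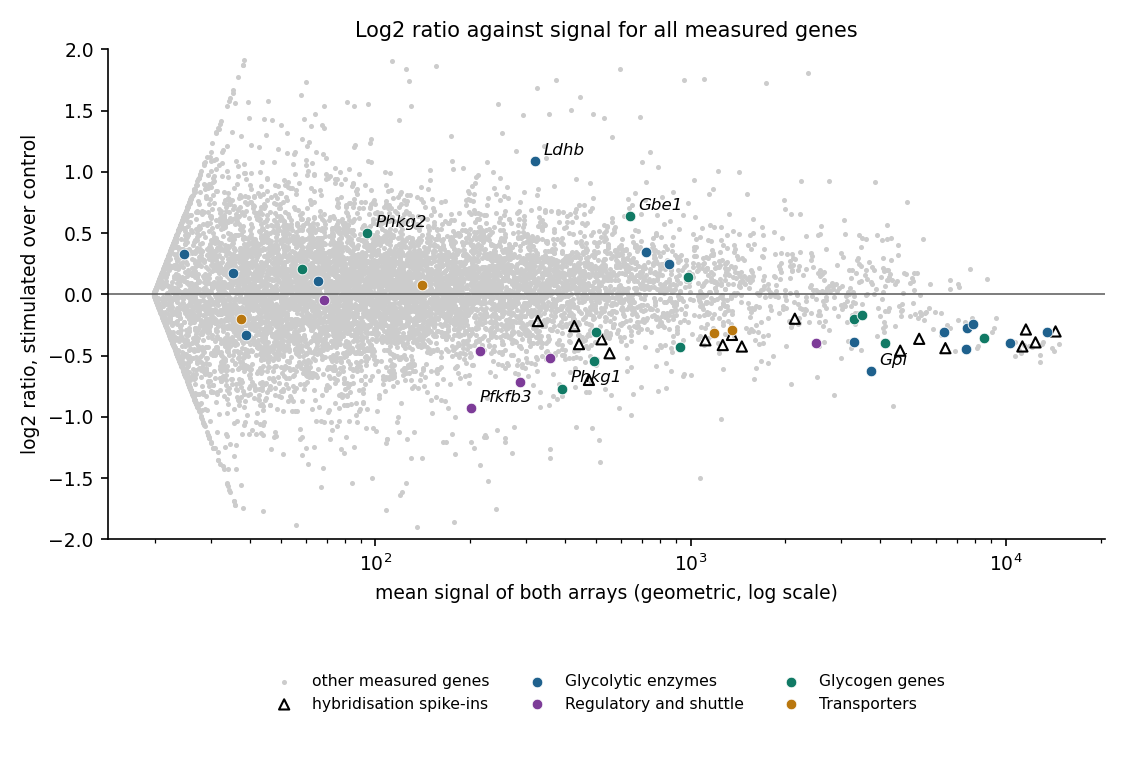
Log2 ratio of stimulated over control against the mean signal (log scale) for the measured members (coloured by group), the other measured genes (grey) and the 18 hybridisation spike-ins (triangles). The vertical axis is limited to 2 on either side of 0, which leaves out 24 other genes. Bright members lie below 0 near the spike-ins, and Ldhb, Gbe1 and Phkg2 lie above it at lower signals.

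Pathways that branch from glycolysis were read from lists of other genes. The pentose phosphate pathway, which turns glucose phosphate into NADPH and ribose, had 6 of 7 measured genes above 0 and a median log2 ratio of 0.54, against 52.3% of all genes above 0, and 5 of the 7 were higher by more than the probe set SD, against 19.5% of all genes. Tkt, transketolase, had signals of 263 in the stimulated and 172 in the control limb, 1.53-fold higher. Pgls, the lactonase of the oxidative branch, had 173 and 113, also 1.53-fold higher. H6pd, the form of the endoplasmic reticulum, had 45.0 and 30.2, 1.49-fold higher. The exception was Rpia, ribose phosphate isomerase, whose probe sets disagreed, with log2 ratios of -0.12 and 1.35. Under the alternatives, the median of this list relative to the median gene ranged from 0.46 to 0.58.

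Genes that carry pyruvate into mitochondria had a median of -0.12 over 13 genes. Of these, 10 lay below 0, which is 76.9% against 47.7% of all genes, and 2 by more than the probe set SD, which is 15.4% against 18%. The pyruvate dehydrogenase kinases Pdk1, Pdk2 and Pdk4 stayed within that SD, while their second probe sets gave -0.34, -0.73 and -0.57. The lowest log2 ratios of the list were those of Pdk3, a kinase that inhibits pyruvate dehydrogenase (23.5 against 35.6, 1.51-fold lower), and Pdpr, a regulator of its phosphatase (28.7 in the control limb, at least 1.45-fold lower with the stimulated signal under the floor). Pdha1, the catalytic subunit of the complex, had signals of 1421 and 1747, 1.23-fold lower, and a log2 ratio of -0.71 on its second probe set. The malate-aspartate shuttle had a median of -0.061 over 7 genes. Its aspartate aminotransferase Got1 was 1.39-fold lower (741 against 1027), its carrier Slc25a13 1.48-fold higher (35.5 against 24.0, with a second probe set at -0.0030), and Slc25a11 lay within the probe set SD.

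Other isoforms of glycolysis had a median of -0.27 over 7 genes. Adpgk, an ADP-dependent glucokinase, had signals of 45.2 and 25.5, 1.77-fold higher, and a log2 ratio of 0.26 on its second probe set. Eno2, neuronal enolase, was 1.47-fold lower (26.8 against 39.3), and Pklr, the liver pyruvate kinase, at least 1.34-fold lower. Other glycogen genes had a median of -0.017 over 10. Gsk3a, a kinase that inhibits glycogen synthase, was 1.68-fold lower (87.5 against 147), the phosphatase catalytic subunit Ppp1ca 1.32-fold higher (1578 against 1193) and the glycogen-binding protein Stbd1 1.31-fold lower (766 against 1006).

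Of 10 other transporter genes, 1 was at least 2-fold different. Emb, embigin, a membrane partner of the monocarboxylate transporters, had signals of 146 in the stimulated and 50.2 in the control limb, 2.90-fold higher. Slc2a3 (GLUT3) was 1.43-fold lower (23.3 against 33.2) and Slc16a10 at least 1.36-fold lower. The median over the 10 was -0.074.

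Gluconeogenesis genes were 4 in number, with a median of -0.14. Pck1, which is also active in adipocytes, had a stimulated signal of 19.0, just under the floor, and a control signal of 60.6, which makes it at least 3.06-fold lower. Slc37a4, the glucose phosphate transporter of the endoplasmic reticulum, was 1.35-fold lower (693 against 933) and Pck2 1.27-fold higher (45.4 against 35.7).

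Genes of GLUT4 trafficking and of insulin or AMPK signalling had a median of -0.039 over 23 genes, with 12 below 0 and 11 above. The share below 0 was 52.2%, near the 47.7% of all genes. Under the alternatives, the median of this list relative to the median gene ranged from -0.14 to -0.013. The lowest value came with the median over probe sets, where 14 of the 23 lay below the median gene. Trarg1, a regulator of GLUT4 trafficking in fat and muscle, had signals of 22.6 in the stimulated and 56.4 in the control limb, 2.50-fold lower. Prkaa2, the main catalytic AMPK subunit of muscle, had 1025 and 1563, 1.53-fold lower. Prkag2, a regulatory subunit, had 31.6 and 48.1, 1.52-fold lower, but its further probe sets disagreed, with log2 ratios of -0.32 and 0.077.

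Hypoxia genes and transcriptional regulators of glycolysis had a median of -0.017 over 27 genes, with 14 below 0 and 13 above. The share below 0 was 51.9%, near the 47.7% of all genes. Mlxip, a glucose-sensing transcription factor also called MondoA, had signals of 108 in the stimulated and 249 in the control limb, 2.30-fold lower, and its second probe set was below the floor in the stimulated limb only. The nuclear receptor gene Nr4a1 was 1.74-fold lower (252 against 439). Epas1, which encodes the hypoxia factor HIF-2alpha and is strong in endothelium, was 1.49-fold lower (412 against 613), with a log2 ratio of -1.16 on its second probe set. Hif1a had 286 and 250, a log2 ratio of 0.19, within the probe set SD.

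**Figure D5:**
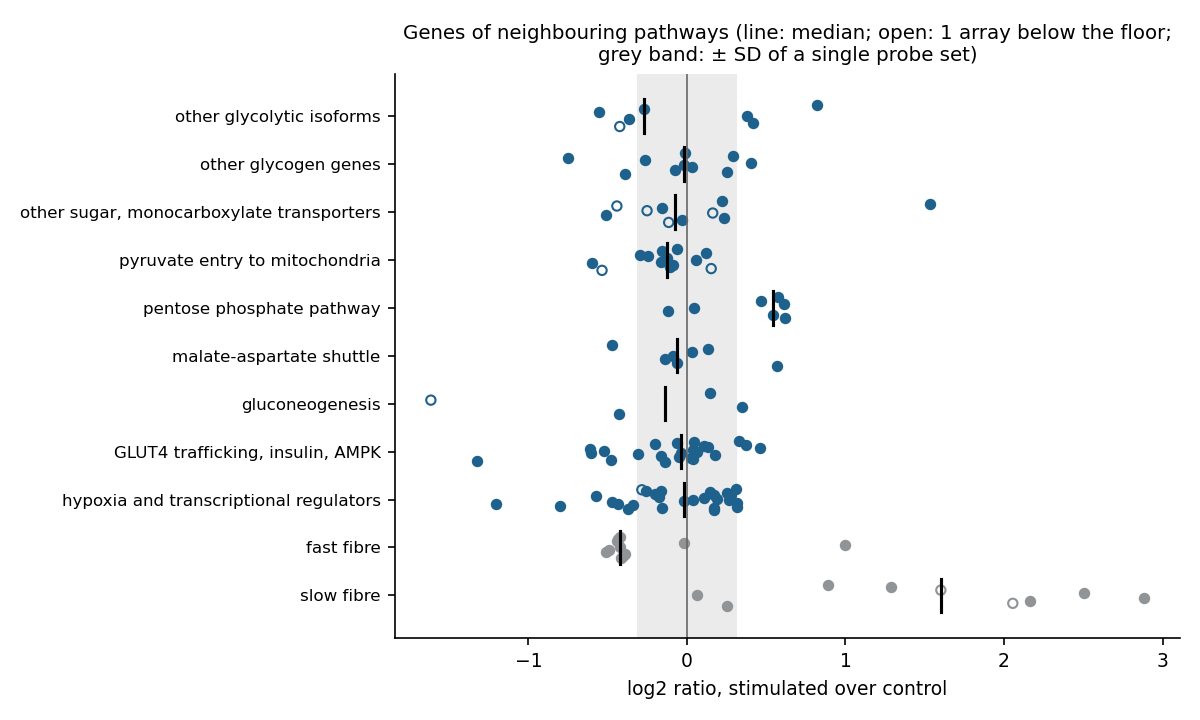
Log2 ratio of stimulated over control for genes of 9 lists next to glycolysis (blue) and of the fast and slow fibre markers (grey). Each point is a gene, open where 1 array lay below the floor, the black line is the median and the grey band the single probe set SD of 0.31 to either side of 0. The pentose phosphate genes have a median of 0.54 and the slow fibre markers one of 1.60.

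Markers of fibre and cell types moved in the same samples. For comparison, 47.7% of all genes had a log2 ratio below 0 and 52.3% above it. Of 11 fast-fibre markers, 10 lay below 0, with a median log2 ratio of -0.42, and their signals summed to 95086 (stimulated) and 126079 (control). The exception was Myh2, the heavy chain of fast oxidative fibres, which was 99.5% higher (2010 against 1008). Myh1, at -0.021, hardly differed. Quantile normalization brought the fast-fibre median to -0.031, or -0.073 relative to the median gene. Of 9 slow-fibre markers, all 9 lay above 0, with a median of 1.60 and summed signals of 2660 and 1317. Myl3 (0.064) and Tpm3 (0.25) were within the probe set SD. The control signals of Tnnt1 and Myh7 were below the floor. All 12 macrophage and phagocyte markers lay above 0, with a median of 1.15 and summed signals of 10907 and 2385, and Spp1 was below the floor in the control limb. Cd14 (0.084) and Cd163 (0.090) were within the probe set SD. All 7 endothelial markers lay below 0, with a median of -0.65 and summed signals of 587 and 1102. So did all 5 measured adipocyte markers, with a median of -1.69 and summed signals of 1304 and 3003. The endothelial Tie1 (-0.30) and Vwf (-0.16) and the adipocyte marker Fabp4 (-0.29) were within the probe set SD. Plin1 and Cidec, both adipocyte markers, were below the floor in the stimulated limb. Fibroblast and tendon markers had a median of 0.29 over 7 genes, 4 of them above 0, and summed signals of 13203 and 15190. The tendon genes Tnmd and Fmod were 6.69-fold and 6.58-fold higher. The matrix genes Col3a1, Dcn and Col1a1 lay below 0, with log2 ratios of -0.33, -0.26 and -0.26. Nerve and Schwann cell markers had a median of -0.38 over 3 genes and summed signals of 829 and 847. The myelin gene Mbp was 2.18-fold lower, while S100b had a log2 ratio of -0.38 and Pmp22 one of 0.23. Of neutrophil markers 2 were measured, with a median of 0.21 and summed signals of 70.9 and 60.0, and S100a8 and Cxcr2 were below the floor on both arrays. Of red cell markers 2 were measured, with a median of 0.23 and summed signals of 1089 and 896, and Alas2 was below the floor on both arrays. In whole muscle, fewer cells of a type and less RNA per cell cannot be told apart. The part of these cell types in the isoform split and in the pentose phosphate difference was not tested.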

How the data were processed

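Total RNA of 1 stimulated and 1 control sample was hybridised to 1 array each, and the deposited table gives 1 linear signal intensity per probe set, computed by the authors in MAS5, per the submitters' processing notes. Its version and scaling target are not stated in these notes. Of 31099 probe sets, 57 were control probe sets of the manufacturer. A floor of 19.8, the median non-control signal, replaced lower signals ahead of the log2 ratio. Probe sets were named by the platform annotation where it gave 1 symbol, and the brightest probe set (mean log2 signal) stood for the gene. Calculations used Python 3.11.15, numpy 2.4.6, pandas 2.3.3 and, for loess with a span of 0.3, statsmodels 0.14.6, and the counting was tested on simulated data. Counts above and below 0 and past 2-fold, 1.5-fold and the probe set SD are descriptions. A further 9 alternatives in floor, probe set choice and scaling were run. The genes named were all measured members and up to 3 of each further list with the largest absolute ratio, and other genes named were chosen after their values were seen. The members and lists, the isoform pairs included, were chosen with earlier results of these data known. With 1 array per group, the number of arrays limits the precision.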

Additional observations from a re-analysis of the deposited data

How the results depend on the processing

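Every member below 0 stayed below the median gene, and every member above 0 stayed above it, under the 9 alternatives wherever it was measured, except Aldoa. Aldoa had a log2 ratio of 0.12 (0.080 relative to the median gene) with quantile normalization. Relative to the median gene, centring on it changes no value, and spike-in scaling could act only through the floor. The agreement of these settings was therefore largely fixed in advance. With quantile normalization Eno3 and the median of the glycolytic enzymes came to 0, or -0.042 relative to the median gene, so that the lower median of that group was not seen there. With spike-in scaling and no reference to the median gene, the median log2 ratio was 0.10 for glycolytic enzymes, 0.12 for glycogen genes, 0.13 for transporters, -0.082 for regulatory and shuttle genes and 0.072 for all members, with 13 members below 0. Past 1.5-fold were then 7 members in the higher and 0 in the lower direction, and past 2-fold 2 in the higher. At least 2-fold higher were also 2 members with the floor at percentile 25 and 2 with no floor. At least 2-fold lower was 1 member with the median over probe sets, and at least 1.5-fold higher was 1 with loess. The muscle isoform was the lower one in every measured pair of all 9 alternatives, with median differences from -0.66 to -0.50. Centring on the median gene shifts all genes alike and could not change these differences. Spike-in scaling could change them only through the floor. With the floor at percentile 75, 5 pairs were left. No paired analysis was possible because each limb had 1 array. No replicate could be left out for the same reason, and low signals, such as those of Pfkl, Pfkp and Slc2a1, limit what can be read.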
